A study of Mus musculus with 9 samples.

Results

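Small RNA sequencing of mouse embryonic kidney assigned part of its reads to Rfam microRNA families, groups of related hairpins that Rfam, a database of RNA families, describes by sequence and structure rather than by the name of 1 mature microRNA. These family rows were chosen by their class in the count tables, precursor, and there were 165 of them among 4078 small RNA names in the 9 libraries. Each was set beside the mature mouse microRNA names that carry the family's number, so that the mir-30 row was read against miR-30a to miR-30f. Of the 165 rows, 129 had at least 1 mature name, 405 names in all of 1606, and 36 had none.

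The libraries came from whole kidneys at embryonic day 16.5 and fell into 3 groups of 3, DROSHA knockout, DROSHA-E1147K transgene and wild-type control. The series concerns what losing or mutating DROSHA does to the developing kidney and whether it gives rise to Wilms tumor. The labels do not give the mouse lines, the promoter or Cre driver, or the cells in which Drosha was altered, so every value describes the whole organ, where fewer cells of a type and less RNA per cell cannot be told apart. Drosha mRNA was not analysed here, and the genotypes were not checked by it. Whether the 3 libraries of each group are from 3 animals is not stated in the labels. The p-values therefore rest on library-to-library spread alone, and part of that can be technical.

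A microRNA is cut in steps from a long primary transcript. DROSHA, a nuclear RNase III enzyme, releases the hairpin precursor, and DICER trims it in the cytoplasm to a short duplex of which usually 1 arm persists as the mature strand. miR-451 is the known exception, since its hairpin is too short for DICER and is cut by Argonaute 2, and a few microRNAs such as miR-320 and miR-484 come from transcripts that bypass DROSHA. Members of a family tend to share the seed, the short stretch near the 5′ end that pairs with target messages.

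The sequences below are RefSeq entries on GRCm38.p6. The first set holds hairpins of families whose rows were high against their mature names (Mir132, Mir101a, Mir451a), whose rows were nearly lost in some libraries (Mir190a, Mir137) or which had the smallest p-values in a test (Mir204, Mir205), with the annotated mature arms in capitals.
Mir132, chr11:75173682-75173747, plus strand: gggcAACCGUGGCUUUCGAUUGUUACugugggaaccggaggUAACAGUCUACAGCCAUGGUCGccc
Mir101a, chr4:101346945-101347027, minus strand: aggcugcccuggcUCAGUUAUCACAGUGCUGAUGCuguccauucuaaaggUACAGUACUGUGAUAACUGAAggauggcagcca
Mir451a, chr11:78073170-78073241, plus strand: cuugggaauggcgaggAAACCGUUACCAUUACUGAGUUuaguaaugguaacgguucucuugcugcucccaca
Mir190a, chr9:67236660-67236726, minus strand: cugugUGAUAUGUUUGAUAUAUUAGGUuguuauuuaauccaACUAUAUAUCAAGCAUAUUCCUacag
Mir137, chr3:118433857-118433929, plus strand: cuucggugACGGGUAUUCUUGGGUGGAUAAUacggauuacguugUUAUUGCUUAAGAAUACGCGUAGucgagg
Mir204, chr19:22750605-22750672, plus strand: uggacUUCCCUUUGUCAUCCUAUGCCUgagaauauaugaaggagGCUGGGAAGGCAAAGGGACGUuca
Mir205, chr1:193507463-193507530, minus strand: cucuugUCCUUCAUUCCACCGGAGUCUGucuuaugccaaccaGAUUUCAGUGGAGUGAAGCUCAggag

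Mir451a has 1 annotated arm, which runs into the loop, and 50 of its 72 bases lie outside that arm. The other hairpins shown have 2 arms, with 22 of 66 bases outside them in Mir132 and 40 of 83 in Mir101a.

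The second set shows mature strands by shared seed, with bases 2 to 8 in capitals. The miR-30 strands share 1 seed and belong to 1 family row. miR-92a, miR-92b, miR-25 and miR-32 also share 1 seed, yet the tables keep a mir-92, a mir-25 and a mir-32 row. The miR-125 strands have no row under their own number, and their nearest family name in the tables is lin-4, the worm founder of that family.
mmu-miR-30a-5p: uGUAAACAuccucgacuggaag
mmu-miR-30c-5p: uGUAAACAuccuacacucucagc
mmu-miR-30e-5p: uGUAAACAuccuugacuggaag
mmu-miR-92a-3p: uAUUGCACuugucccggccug
mmu-miR-92b-3p: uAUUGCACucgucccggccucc
mmu-miR-25-3p: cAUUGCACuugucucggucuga
mmu-miR-32-5p: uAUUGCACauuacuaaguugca
mmu-miR-125a-5p: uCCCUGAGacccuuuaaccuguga
mmu-miR-125b-5p: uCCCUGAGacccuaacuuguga

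Family rows held 1874555 to 3568088 reads a library, which was 5.67% to 10.2% of its counted reads, and mature names held 24350157 to 34896111. Between 122 and 132 of the 165 rows had a read in a given library, 103 rows had reads in all 9 libraries and 14 in only 1. The rows were uneven in depth, with 44 averaging at least 1000 reads a library, 70 averaging under 10 and 41 under 1. The 92 rows with enough reads were tested for differences between groups, together with 957 microRNA names.

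2 libraries stood apart by low ratios before any group was compared. For 87 families with a mean of at least 10 reads on both the family row and the mature names, the log2 ratio of family reads to mature reads was taken in each library, with 1 added to each count. In knockout 1 the ratio lay more than 1 log2 unit below the median of the other 8 libraries in 9 of the 67 families of at least 5 CPM, the counts scaled to a common library size, which were mir-378, mir-21, mir-143, mir-122, mir-320, mir-203, mir-486, mir-137 and mir-190. In control 3 it did so for 4 of them, mir-378, mir-143, mir-320 and mir-190, all of which were also low in knockout 1. The other 7 libraries had 1 such family or none. In the upward direction knockout 3 stood out, more than 1 log2 unit above in 3 of the 67 families. These were let-7 (1.22), mir-218 (1.995) and mir-1 (1.19), and every other library had 1 family that high or none. The cause was not tested.

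The size of these gaps is clearest in the reads themselves. The mir-143 row, of a family abundant in smooth muscle and mesenchyme, had 680 reads in knockout 1, 10240 in knockout 2 and 11557 in knockout 3. It had 9706, 9135 and 10801 reads in the transgene libraries and 15333, 9375 and 799 in the controls. Only knockout 1 and control 3 were low, whereas mature miR-143 had 772766 reads in knockout 1 and 995021 in control 3, within the 645009 to 1011219 of all 9 libraries.

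The mir-190 row, whose hairpin Mir190a is printed above, had 2, 275 and 310 reads in the knockout libraries, 478, 335 and 339 in the transgene libraries and 403, 320 and 3 in the controls. Its mature names had 2467 reads in knockout 1 and 1950 in control 3, within the 1376 to 3383 of all 9 libraries. The mir-137 row, of a microRNA of neurons, had 0 reads in knockout 1, where a count of 0 allows up to 3, beside 149 mature reads, where the other libraries had 108 to 4884. It had 222 and 2824 reads in the other knockout libraries, 609, 1210 and 268 in the transgene libraries and 690, 97 and 95 in the controls. The mir-203 row, of an epithelial microRNA, had 585 reads in knockout 1 and 3332 to 5472 in the other 8 libraries. For knockout against control the log2 fold of mir-203 was -0.30 with all libraries and 0.21 without knockout 1 and control 3. That of the liver row mir-122 was -0.40 and 2.19, that of mir-143 -0.05 and -0.03, that of mir-190 -0.19 and -0.18, and that of mir-320 -0.31 and -0.37. The mir-122 fold was 0.15 without knockout 1 alone and 1.61 without control 3 alone. Control 3 was not among the libraries with a low mir-122 ratio. None of these folds passed in edgeR.

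**Figure D1:**
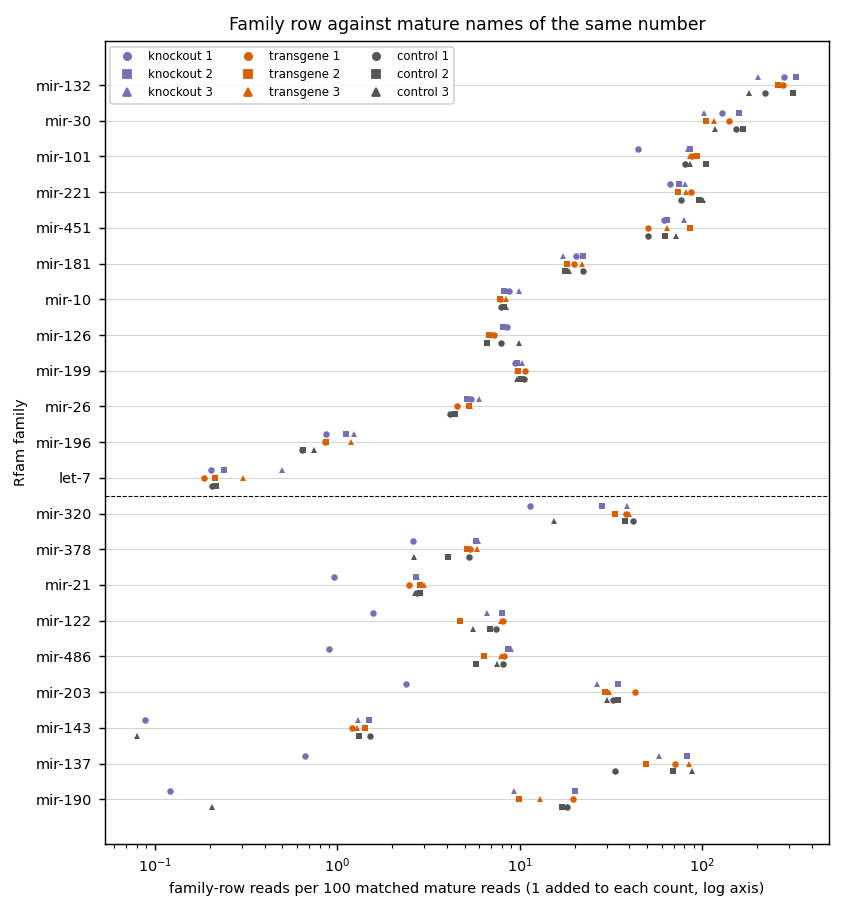
Reads on the family row per 100 reads on the matched mature names, on a log axis, for 21 families (1 added to each count). Each symbol is 1 library, with the knockout above the transgene and the control within each family; the families under the dashed line are those in which knockout 1 (violet circle) lay low, and control 3 (grey triangle) lay low beside it for mir-320, mir-378, mir-143 and mir-190.

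The plot of reads per 100 mature reads also shows how far the families differ from each other. Over the 87 families, of which mir-127 was lowest, mir-7 in the middle and mir-132 highest, the mean over the libraries ran from 0.00444 to 261 family reads per 100 mature reads, with a median of 6.34. The highest was mir-132, of an activity-regulated microRNA best known in neurons, at 261 family reads per 100 mature reads. It was followed by mir-30 at 132, mir-101 at 83.7, mir-221 at 81.9 and mir-451 at 65.8. In mir-132 and mir-30 the family row therefore held more reads than all mature names of its number together. Only names of that number were counted, so mir-132 was set against miR-132-3p and miR-132-5p alone. Relatives under another number, where a row takes them in, were left out, so the order of families depends on this matching.

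The mir-132 row had 3942, 4124 and 3284 reads in the knockout libraries, 3727, 3323 and 3688 in the transgene libraries and 6425, 4346 and 5059 in the controls. Its mature names had 1253 to 2911 reads in all 9 libraries, fewer than the row in each of them. The ratio was at 280, 329 and 203 family reads per 100 mature reads in the knockout, 277, 260.0 and 279 in the transgene and 221, 316 and 181 in the control libraries, and these ranges overlapped.

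At the other end, let-7, the most abundant family by mature reads among those measured, had 3211720 to 5858986 mature reads a library and 7618 to 16078 reads on its row, or 0.254 per 100. The mir-127 row, of an imprinted microRNA of chromosome 12, had 2 to 27 reads beside 135562 to 564503 mature reads. Among 42 matched rows with a mean under 10 reads, 33 belonged to families whose mature names averaged at least 1000 reads. In that set the mir-322 row averaged 0.889 reads beside 658947 mature reads, and the mir-652 row averaged 0.333 beside 542674. The mir-22 row averaged 6 reads beside 90048 mature reads.

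Families that share a seed did not share a ratio. The mir-92 row averaged 19.3 reads per 100 mature reads, while the mir-25 row averaged 3.67 reads beside 66535 reads on mature miR-25. The mir-32 row averaged 15.8 reads, or 0.235 per 100. All of miR-92, miR-25 and miR-32 carry the same letters AUUGCAC at bases 2 to 8.

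Families with members cut from 1 primary transcript did not share a ratio either. mir-144 and mir-451 lie side by side in an erythroid transcript, and their rows had 0.117 and 65.8 reads per 100 mature reads. Of the families in the miR-17 to miR-92 cluster, which promotes proliferation, mir-17 was at 10.2, mir-19 at 0.781 and mir-92 at 19.3 reads per 100. The mesenchymal mir-199 and mir-214, which have members on 1 transcript, mouse Dnm3os, were at 9.998 and 0.0313. The mir-19, mir-92 and mir-199 values pool names of several gene copies, among them miR-19b-2, miR-92b and miR-199b. They are therefore not ratios of single transcripts. The mir-17 row was set against miR-17-3p and miR-17-5p alone, so relatives under another number, where the row takes them in, were left out. The sensory and epithelial cluster was closer together, with mir-183 at 8.91, mir-96 at 4.03 and mir-182 at 10.1 reads per 100. The rule that divided reads between a family row and mature names is not known here, so the ratio does not measure precursor against mature RNA. Whether that rule was applied alike in all 9 libraries is not known either, which limits every comparison of the ratio between groups.

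The most abundant row in every group was mir-451, of the microRNA of maturing red cells. mir-451 took 20.1% to 67.6% of a library's family reads and 44.8% of all of them. mir-451 was at 38726, 44142 and 78701 CPM in the knockout libraries, 37174, 48237 and 15325 CPM in the transgene libraries and 24038, 26600 and 13581 CPM in the controls, where CPM are scaled by TMM, edgeR's trimmed-mean factor for library size. All 3 knockout libraries lay above all 3 controls, while the transgene libraries overlapped both groups. The mean was 53857 ± 21686 CPM in knockout, 33579 ± 16748 CPM in transgene and 21406 ± 6897 CPM in control libraries (SD, n = 3 each). The log2 fold of mir-451 was 1.33 (SE 0.45) for knockout against control, with an adjusted p of 0.148 by edgeR's quasi-likelihood test with Benjamini-Hochberg adjustment over all 1049 names and rows. It was 0.65 (SE 0.45, adjusted p 0.660) for transgene against control and 0.68 (SE 0.45, adjusted p 0.708) for knockout against transgene, so none passed 0.05. Single libraries weighed on the last 2 folds of mir-451: that for transgene against control was 0.34 without control 3 and 1.005 without transgene 3, and that for knockout against transgene was 0.34 without transgene 3 and 1.01 without transgene 2.

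The mean of the mature names of mir-451 was ordered like that of its row. Its mean was 76532 ± 19577 CPM in knockout, 51189 ± 25332 CPM in transgene and 36327 ± 15346 CPM in control libraries (SD, n = 3 each). The mir-451 row stood at 62.2, 64.5 and 79.6 reads per 100 mature reads in the knockout, 50.4, 85.9 and 64.5 in the transgene and 50.4, 62.6 and 72.0 in the control libraries. The groups overlapped in this ratio of mir-451, and its log2 difference for knockout against control was 0.16 (SE 0.21, adjusted p 0.731 by limma).

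**Figure D2:**
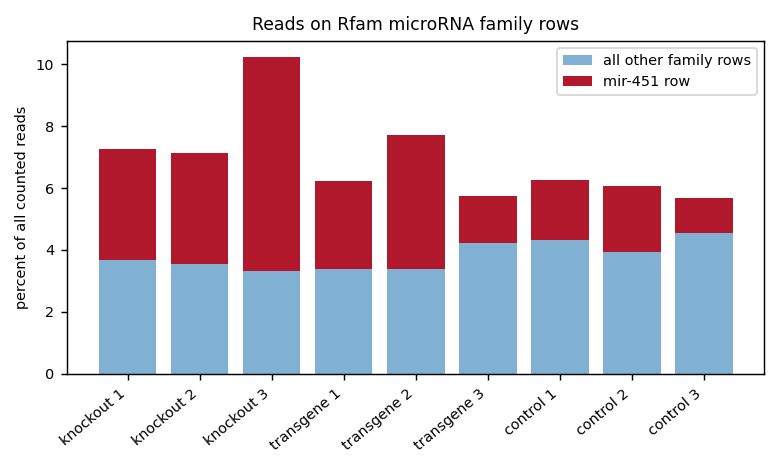
Percent of all counted reads that lay on family rows in each library, stacked as the mir-451 row and all other family rows. The total was 8.21% ± 1.76 in knockout, 6.56% ± 1.04 in transgene and 6.0% ± 0.299 in control libraries (SD, n = 3 each), and the part without mir-451 was 3.51% ± 0.176, 3.67% ± 0.486 and 4.27% ± 0.295 in the same order.

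The share of all counted reads on family rows was 7.26%, 7.14% and 10.2% in the knockout libraries, 6.22%, 7.72% and 5.74% in the transgene libraries and 6.26%, 6.07% and 5.67% in the controls, as the stacked bars show. Without mir-451 the share was 3.66%, 3.55% and 3.32% in knockout, 3.39%, 3.38% and 4.23% in transgene and 4.32%, 3.95% and 4.53% in control libraries. Every knockout library lay above every control in the first share and below every control in the second. The second share is still a percent of all counted reads, those of mir-451 and its mature name included. A library with more of these reads therefore has a lower second share even where its other family reads are the same. The exact 2-sided permutation p was 0.1 in both cases, the smallest that 3 libraries against 3 allow, and 0.3 after adjustment over 3 comparisons. The transgene differed from control by 0.561 percentage points in the first share (exact permutation p 0.5) and by -0.600 points in the second (exact permutation p 0.2). The first of these differences was -0.0207 points without transgene 2. The knockout differed from the transgene by -0.156 points in the second share (exact permutation p 0.8) and by 0.124 points without transgene 3, so these groups have no stable order in it. Of family, mature and hairpin reads alone, family rows held 8.86%, 8.51% and 11.7% in the knockout libraries. They held 7.36%, 9.13% and 6.77% in transgene and 7.10%, 6.98% and 6.49% in control libraries. The share of mature names in all counted reads was not compared between groups.

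**Figure D3:**
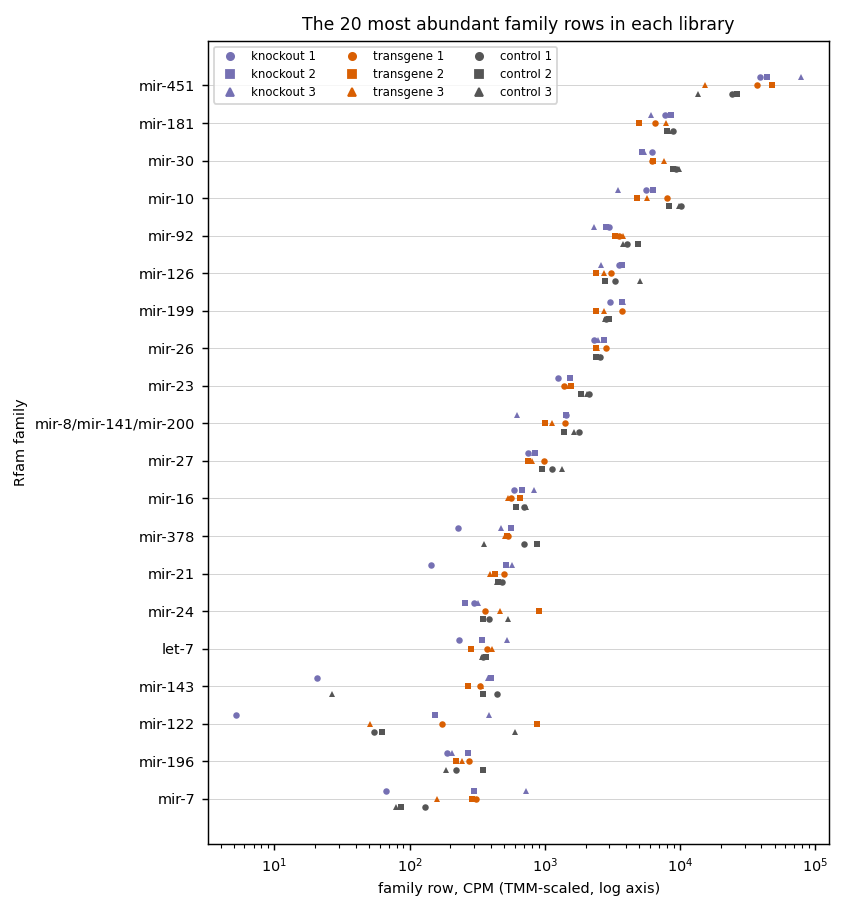
CPM of the 20 family rows with the highest mean, on a log axis. Each symbol is 1 library, with the knockout above the transgene and the control within each family. All but mir-143, mir-122 and mir-7 span less than a factor of 10 over the 9 libraries, and mir-143 and mir-122 in knockout 1 fall far below the other knockout libraries.

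After mir-451 came mir-181, mir-30, mir-10, mir-92, mir-126, mir-199, mir-26, mir-23 and mir-8/mir-141/mir-200. These 10 rows held 90.4% of all family reads, and the 20 in the plot of abundant rows held 95.8%. mir-181, a family of lymphoid and many other tissues, was at 7465 ± 1294 CPM in knockout, 6493 ± 1440 CPM in transgene and 8389 ± 390 CPM in control libraries. mir-126, the endothelial family, was at 3312 ± 606, 2750 ± 347 and 3710 ± 1188 CPM in the same order. mir-199, of mesenchyme, was at 3528 ± 427, 2937 ± 690 and 2866 ± 88.1 CPM, and mir-26 at 2508 ± 221, 2548 ± 237 and 2501 ± 94.4 CPM (SD, n = 3 each). None of these 4 rows passed in any comparison, and their log2 folds lay between -0.43 (mir-126, transgene against control) and 0.30 (mir-199, knockout against control).

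For knockout against control, none of the 92 tested family rows passed an adjusted p of 0.05 in edgeR, and none of the 1049 names and rows did (0% higher and 0% lower). At an unadjusted p under 0.05 there were 24 of the 92 rows, against 25.5% of all 1049, so the rows held about the share that all names held. Of these rows 14 were higher, against 15.9% of all names, and 10 lower, against 9.53%. The 3 libraries of each group did not overlap for 29 rows, against 27.9% of all names, with 11 higher and 18 lower in knockout, against 13.6% and 14.3%. The median log2 fold was -0.01 over the 92 rows and -0.01 over all names, and without TMM it was 0.146 over all names. Counts are scaled within each library and TMM centres the folds, so these medians cannot show a change shared by most microRNAs. DESeq2, run on the same table, passed 10 rows, against 14.1% of the names it adjusted. They were mir-7, mir-1, mir-133, mir-144, mir-375, mir-205 and mir-31 with positive folds and mir-30, mir-187 and mir-263 with negative ones. Without knockout 1, edgeR passed 2 rows, mir-7 and mir-375, against 4.45% of names. Without knockout 3 it passed 1, MIR168, against 0.0907% of names. Leaving out any other single library, or both knockout 1 and control 3, left 0 rows.

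Among the 5 rows with the smallest p-values, mir-30 is a family of differentiated renal epithelium. It was at 6189, 5271 and 5447 CPM in knockout, 6237, 6335 and 7658 CPM in transgene and 9331, 8898 and 9837 CPM in control libraries. Both DROSHA groups lay wholly below the controls, which they share, and every knockout library lay below every transgene library. The log2 fold was -0.73 (SE 0.15, adjusted p 0.118) for knockout and -0.47 (SE 0.15, adjusted p 0.566) for transgene against control by edgeR. The mature miR-30 names stood at 4490 ± 1060, 5671 ± 1096 and 6595 ± 1590 CPM in knockout, transgene and control libraries.

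mir-92, the family of the miR-17 to miR-92 cluster with the most reads, was at 2979, 2854 and 2311 CPM in knockout, 3543, 3315 and 3797 CPM in transgene and 4035, 4881 and 3805 CPM in control libraries. The 3 groups did not overlap, with the knockout lowest. The log2 fold of mir-92 was -0.64 (SE 0.18, adjusted p 0.118) for knockout and -0.26 (SE 0.18, adjusted p 0.660) for transgene against control. Among 3 tested members of the cluster list, mir-17 (log2 -0.49) and mir-19 (log2 -0.23) were also negative in knockout, and the median was -0.49. The mir-92 fold for transgene was -0.15 without transgene 2, and the mir-17 fold for knockout was -0.30 without knockout 3.

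mir-187 was at 73.8, 62.0 and 24.8 CPM in knockout, 99.2, 115 and 104 CPM in transgene and 135, 156 and 210 CPM in control libraries, again without overlap and with the knockout lowest. Its log2 fold was -1.64 (SE 0.40, adjusted p 0.118) for knockout and -0.66 (SE 0.39, adjusted p 0.592) for transgene against control. The mature names of mir-187 stood at 225.5 ± 129, 539 ± 44.5 and 837 ± 132 CPM in the 3 groups. mir-10, encoded in the Hox clusters, was at 5604, 6343 and 3478 CPM in knockout, 8038, 4771 and 5662 CPM in transgene and 10119, 8299 and 9888 CPM in control libraries. Every library of both DROSHA groups lay below every control, with log2 folds of -0.88 (SE 0.27, adjusted p 0.123) for knockout, -0.58 without knockout 3, and -0.62 (SE 0.27, adjusted p 0.566) for transgene, -0.41 without transgene 2.

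mir-375, of endocrine islet and neuroendocrine cells, was at 23.4, 62.5 and 139.8 CPM in knockout, 70.0, 67.6 and 231 CPM in transgene and 11.7, 16.2 and 11.3 CPM in control libraries. All 6 libraries of the DROSHA groups lay above all controls, with a spread of several fold within each group. The log2 fold of mir-375 was 2.53 (SE 0.71, adjusted p 0.118) for knockout and 3.23 (SE 0.73, adjusted p 0.409) for transgene against control by edgeR. Mature miR-375 stood at 2401 ± 1869, 4398 ± 3340 and 402 ± 133 CPM in knockout, transgene and control libraries. mir-7, also of endocrine and neural cells, was at 67.4, 300.1 and 727 CPM in knockout, 309.6, 287.5 and 160.1 CPM in transgene and 129, 86.1 and 78.8 CPM in control libraries. Knockout 1 was the lowest of all 9 libraries and knockout 3 the highest, so the knockout overlapped the controls, while the transgene libraries lay above them.

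Rows of striated muscle followed single libraries. mir-133 was at 154, 24.3 and 498 CPM in knockout, 41.1, 42.7 and 34.4 CPM in transgene and 46.9, 24.9 and 20.5 CPM in control libraries. Knockout 2 lay among the controls and knockout 3 stood far above all others. Its log2 fold for knockout against control was 2.87 (SE 0.88, adjusted p 0.123) and 1.63 without knockout 3. mir-1 was at 5.99, 1.05 and 36.1 CPM in the knockout libraries and mir-499 at 3.78, 7.13 and 37.8 CPM, with knockout 3 highest in both. The 3 tested rows of the muscle list were positive in knockout, with a median log2 of 2.87, and the mir-208 row of the list averaged 2.56 reads and was not tested. The part of muscle tissue in the kidney samples was not tested.

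The mir-205 and mir-31 rows, of epithelial and epidermal microRNAs, had the smallest edgeR p-values for knockout against transgene, and neither passed. They were named for that reason, so a gap between these groups follows in part from the choice. mir-205 was at 50.04, 39.9 and 41.6 CPM in knockout, 16.6, 21.1 and 22.1 CPM in transgene and 25.8, 29.0 and 23.7 CPM in control libraries. mir-31 was at 39.8, 47.0 and 39.5 CPM in knockout, 23.9, 30.3 and 26.1 CPM in transgene and 24.1, 29.5 and 27.7 CPM in control libraries. In both rows the knockout lay wholly above the other groups. The log2 fold for knockout against transgene was 1.13 (SE 0.23, adjusted p 0.490) for mir-205 and 0.65 (SE 0.22, adjusted p 0.646) for mir-31. Against control it was 0.75 (SE 0.23, adjusted p 0.123) and 0.63 (SE 0.22, adjusted p 0.152).

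**Figure D4:**
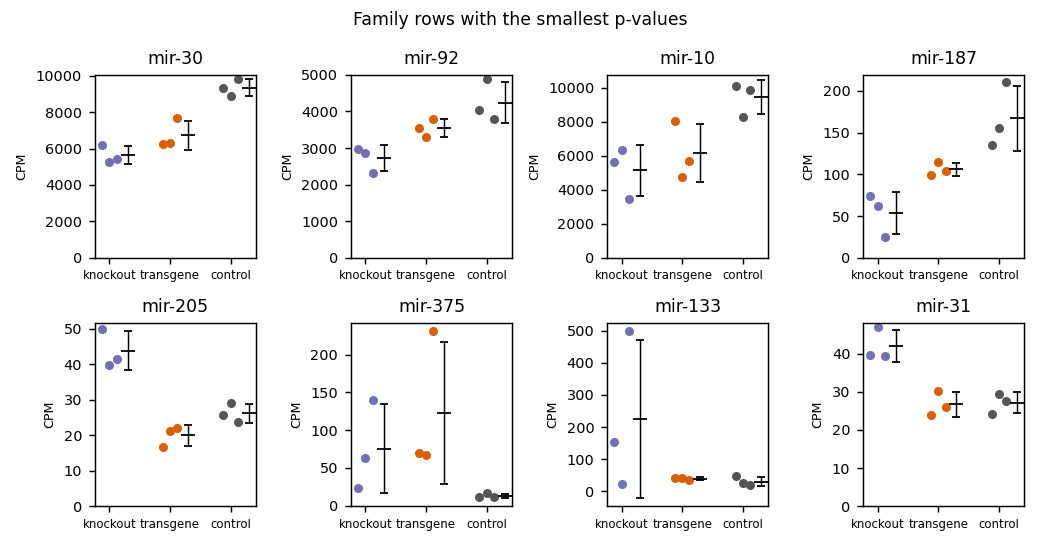
CPM of 8 family rows in each library, on linear axes, with the knockout left of the transgene and the control. Points are libraries, and the bar beside them gives the mean and SD (n = 3). The knockout points lie below the controls for mir-30, mir-92, mir-10 and mir-187 and above them for mir-205, mir-31 and mir-375, while mir-133 rests on knockout 1 and knockout 3.

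The plot of 8 rows by group shows these families together. For transgene against control, none of the 92 rows passed in edgeR and none of the 1049 names (0% in each direction). At an unadjusted p under 0.05 there were 5 rows, mir-375, mir-30, mir-132, mir-23 and mir-689, against 8.01% of all names. Of these rows 1 was higher, against 5.34% of all names, and 4 lower, against 2.67%. The groups did not overlap for 4 rows higher and 11 lower, against 12.1% and 10.6% of all names. DESeq2 passed 1 row, mir-375, against 0.484% of the names it adjusted. mir-23, of a cluster with mir-27 and mir-24, was at 1438 ± 165 CPM in knockout, 1494 ± 86.6 CPM in transgene and 2008 ± 135 CPM in control libraries, with log2 folds against control of -0.48 (SE 0.17, adjusted p 0.155) and -0.43 (SE 0.17, adjusted p 0.566). mir-132 had a log2 fold of -0.60 (SE 0.24, adjusted p 0.566) for transgene against control. mir-689 rested on control 3, with 46 reads there, 2 in each other control and 0 to 3 in the transgene libraries, and its log2 fold of -3.28 became -0.32 without control 3.

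For knockout against transgene, none of the 92 family rows passed in edgeR, where 1 name that is not a family row did (0.0953% lower and 0% higher). At an unadjusted p under 0.05 there were 8 rows, against 6.86% of all names, 5 higher (2.96% of all names) and 3 lower (3.91%). The groups did not overlap for 5 rows higher and 8 lower, against 3.91% and 6.86%. DESeq2 passed 1, mir-205, against 0.387% of the names it adjusted, and edgeR passed 1, MIR168, without knockout 3, against 0.0907%. mir-24 was at 299.9, 256 and 320.3 CPM in knockout and 361, 906 and 465 CPM in transgene libraries, without overlap, and its log2 fold of -0.98 (SE 0.35, adjusted p 0.646) was -0.53 without transgene 2. The invertebrate-named mir-2 row rested on 17 to 63 reads in knockout and 8 to 18 in transgene libraries (log2 1.55, SE 0.56, adjusted p 0.646).

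The lists of rows by tissue and function behaved as follows in knockout against control, beside a median of -0.01 over all rows and names, and none of their members passed in edgeR with all libraries. DESeq2 passed the members mir-7, mir-1, mir-30, mir-133, mir-144 and mir-375, and edgeR without knockout 1 passed mir-7 and mir-375. Of all rows and names, 49.5% had a positive and 50.5% a negative fold in that comparison. The split was 50.1% and 49.9% for transgene against control, and 51.1% and 48.9% for knockout against transgene. TMM scaling tends to set such a near-even split, so it does not show that microRNA levels as a whole were unchanged. The 3 erythroid rows mir-451, mir-486 and mir-144 were all positive, with a median log2 of 1.33, the fold of mir-486 being 1.18 and that of mir-144 2.52. Both rested largely on knockout 3, without which mir-486 was at 0.44 and mir-144 at 1.10, while mir-486 was at 1.42 without knockout 1 and control 3. Of 10 rows of renal and ureteric epithelium, 9 were negative, with a median of -0.67. In 6 the knockout lay wholly below the controls, against 14.3% of all names, among them mir-30, mir-192/215, mir-194 and mir-182. The 10 rows are not independent, since mir-183, mir-96 and mir-182 are of 1 cluster. Their list was chosen with earlier results of these data known. The fold of mir-190, also in this list, ran from -0.80 to 0.42 with 1 library left out. mir-192/215, of tubule epithelium, was at 63.4, 77.7 and 85.4 CPM in knockout, 92.8, 240.1 and 109 CPM in transgene and 112, 133 and 252 CPM in control libraries (log2 -1.13 for knockout against control, -0.71 without control 3). mir-8/mir-141/mir-200, which keeps epithelial cells epithelial, was at 1438, 1439 and 627 CPM in knockout and 1779, 1392 and 1642 CPM in control libraries, and its log2 fold of -0.46 was -0.07 without knockout 3. mir-204, of the same list, had a log2 fold of 0.15.

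The same 10 epithelial rows had a median log2 of -0.42 for transgene against control, with 8 negative, and the 3 erythroid rows had 0.65. Both comparisons use the same 3 controls. Of 7 neural and endocrine rows, 6 were positive in knockout, with a median of 0.77, and 5 in transgene, with a median of 0.21. Of 5 mesenchyme and smooth muscle rows, 4 were positive in each, with medians of 0.30 and 0.19. The 2 endothelial rows were negative in both, at medians of -0.32 and -0.44. The 3 tested leukocyte rows had medians of -0.23 and -0.27, and both injury rows, mir-21 and mir-146, were negative, at medians of -0.20 and -0.16. The mir-21 row was among those low against their mature names in knockout 1. For knockout against control its log2 ratio of mean CPM was -0.16, while that of mature miR-21 was 0.13. Of 11 rows from the Dlk1-Dio3 region in the tables, 3 had enough reads to be tested, with medians of 0.87 and 0.61. All 3 were positive for transgene, while 1 of them, mir-127, was negative for knockout. For knockout against control the log2 ratio of mean CPM was -0.83 on the mir-127 row and 1.15 on mature miR-127. The 4 tested rows of microRNAs made without DROSHA had medians of 0.09 and 0.16, with mir-320 at -0.31 and 0.21 and mir-484 at 0.24 and 0.02. The let-7 row was at 0.06 and 0.00 and the liver row mir-122 at -0.40 and 0.61, each for knockout first and transgene second. The Hox cluster rows mir-10 and mir-196 were listed together with lin-4, and the 3 rows had medians of -0.17 and -0.03 in the same order. Of these, lin-4 was positive, at 0.53 and 0.03, while mir-10 was at -0.88 and -0.62.

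**Figure D5:**
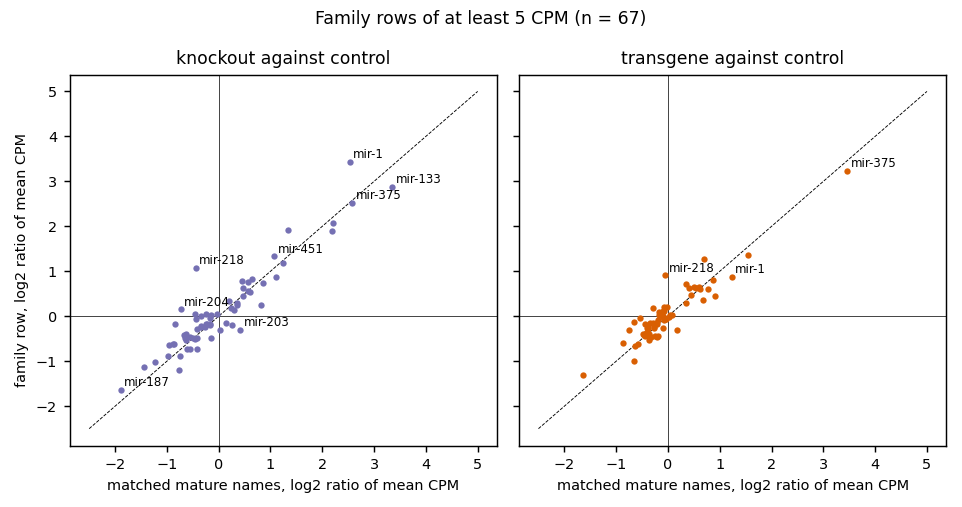
Log2 ratio of group mean CPM of the family row against that of its matched mature names, for the 67 families of at least 5 CPM on the row. The left panel is knockout against control and the right panel transgene against control, which use the same controls, and the dashed line marks equal ratios. Most families lie near the line, with mir-218, mir-204 and mir-1 above it and mir-203 below it in the left panel.

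Whether a family row and its mature names moved alike was tested with the ratio, as the plot of row against mature ratios shows. Of 87 families, none passed an adjusted p of 0.05 with limma in any of the 3 comparisons (0% higher and lower in each). At an unadjusted p under 0.05 there were 4 higher (4.6%) and 3 lower (3.45%) for knockout against control, 3 higher and 1 lower for transgene against control, and 1 higher and 0 lower for knockout against transgene. The ratios of the groups did not overlap for 11 families higher and 3 lower in knockout against control (12.6% and 3.45%), 5 and 3 in transgene against control (5.75% and 3.45%) and 8 and 1 in knockout against transgene (9.2% and 1.15%). The ratio was on average higher in knockout than in control in 49 families (56.3%) and lower in 38 (43.7%), higher in transgene than in control in 48 (55.2%) and lower in 39 (44.8%), and higher in knockout than in transgene in 51 (58.6%) and lower in 36 (41.4%). The median log2 difference was 0.04, 0.03 and 0.02 in the same order.

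The smallest p-values for knockout against control were those of mir-204, mir-196, mir-26, mir-92 and mir-129. mir-204, of a microRNA of tubule and lens epithelium whose hairpin is printed above, stood at 4.56, 6.24 and 7.69 family reads per 100 mature reads in knockout, 4.70, 4.38 and 4.81 in transgene and 2.68, 4.26 and 2.85 in control libraries. Both DROSHA groups lay wholly above the controls, of which control 2 came nearest. The log2 difference was 0.92 (SE 0.23, adjusted p 0.186 by limma) for knockout and 0.54 (SE 0.23, adjusted p 0.876) for transgene against control. The row itself was close between groups, at 70.4 ± 24.1, 58.1 ± 20.1 and 63.2 ± 12.3 CPM in knockout, transgene and control libraries, while mature miR-204 stood at 1179 ± 412, 1247 ± 404 and 1960 ± 141 CPM.

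mir-196, of the Hox clusters, stood at 0.872, 1.12 and 1.24 family reads per 100 mature reads in knockout, 0.854, 0.872 and 1.19 in transgene and 0.639, 0.652 and 0.747 in control libraries. mir-26 stood at 5.43, 5.14 and 6.02 in knockout, 4.53, 5.27 and 5.32 in transgene and 4.15, 4.41 and 4.45 in control libraries. In both families each DROSHA group lay wholly above the controls. The log2 differences for knockout against control were 0.65 (SE 0.18) and 0.35 (SE 0.09), with an adjusted p of 0.186 for each by limma.

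mir-92 stood at 20.6, 20.2 and 23.9 family reads per 100 mature reads in knockout, 19.3, 17.6 and 20.3 in transgene and 17.0, 16.2 and 18.7 in control libraries. The knockout lay above the controls, and transgene 1 and transgene 3 did so as well (log2 difference 0.32 for knockout, SE 0.10, adjusted p 0.270). mir-129, with 10, 10 and 80 reads in knockout and 27, 29 and 34 in control libraries, had 2.25, 1.86 and 1.45 family reads per 100 mature reads in knockout and 2.93, 4.33 and 3.28 in control libraries (log2 difference -0.87, SE 0.29, adjusted p 0.304). mir-218, whose row had 79, 104 and 539 reads in knockout, 139, 226 and 321 in transgene and 129, 144 and 69 in control libraries, had a log2 ratio difference of 1.07 (SE 0.53, adjusted p 0.529) for knockout, which was 0.46 without knockout 3. Without knockout 1 and control 3 no family passed in any comparison, and the smallest adjusted p for knockout against control was 0.0743 by limma.

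For transgene against control the smallest p-value was that of mir-223, of myeloid cells, at 18.6, 21.4 and 20.9 family reads per 100 mature reads in transgene and 16.3, 15.5 and 16.1 in control libraries. The transgene libraries lay wholly above the controls (log2 difference 0.34, SE 0.10, adjusted p 0.690). The knockout libraries, at 18.5, 17.3 and 18.8, also did so. For knockout against transgene it was that of mir-24, at 8.41, 9.21 and 8.95 in knockout and 8.20, 5.28 and 6.39 in transgene libraries (log2 difference 0.44, SE 0.16, adjusted p 0.766), where transgene 1 lay close to the knockout and the difference was 0.29 without transgene 2. The next was mir-187 at 22.3, 23.4 and 30.4 in knockout and 19.2, 19.5 and 20.4 in transgene libraries (log2 difference 0.35, SE 0.16, adjusted p 0.766, and 0.22 without knockout 3). mir-144, whose row had 32, 17 and 165 reads in knockout and 20, 30 and 12 in transgene libraries, had a log2 difference of 1.11 (SE 0.50, adjusted p 0.766), which was 0.68 without knockout 3.

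Of the 36 rows with no mature name of their number, 15 carry names of worm or fly families, 13 names of plant families and 8 others. The lin-4 row, the largest of the 36, had 1564, 845 and 2773 reads in knockout, 960, 1344 and 1527 in transgene and 1277, 1028 and 1279 in control libraries. Set against the miR-125 names, this was 0.805, 0.706 and 1.32 reads per 100 in knockout, 0.681, 0.853 and 0.831 in transgene and 0.603, 0.604 and 0.571 in control libraries, so that each DROSHA group lay wholly above the controls. The mir-263 row had 376, 197 and 150 reads in knockout, 584, 288 and 427 in transgene and 1214, 403 and 457 in control libraries, with a log2 fold of -1.45 (SE 0.49, adjusted p 0.146 by edgeR) for knockout against control and -0.95 without control 1. The other invertebrate-named rows averaged at most 23 reads.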

How the data were processed

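Small RNA libraries of 9 kidney samples were analysed from the authors' deposited tables, 1 per library, which give raw read counts and TPM per small RNA name. Per the submitters' processing notes, CASAVA 1.8, Bowtie2 and mm10 were used; the rule for reads that match several names is not stated there. The deposited TPM equalled the count scaled to the library total within 0.005 and was used only for that check. Family rows and mature and hairpin names were tested in 1 table with edgeR 4.0.16 (quasi-likelihood, TMM, filterByExpr, 3 groups) in R 4.3.3, with Benjamini-Hochberg adjustment over 1049 names and a threshold of 0.05. The family-to-mature log2 ratio (pseudocount 1, mean of at least 10 reads in both) was tested with limma 3.58.1 over 87 families, and shares with exact permutation. DESeq2 1.42.0, other scalings, filters and pseudocounts, a replicate block and leaving out libraries were alternatives. The scripts were tested on simulated data. Named rows were the 20 most abundant, the 5 with the smallest p per comparison and test, and members of lists by tissue. Members and lists were chosen with earlier results of these data known, and other names are given because they passed in an alternative or stood apart in a library.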

Additional observations from a re-analysis of the deposited data

How the results depend on the processing

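No family row passed in edgeR or limma, and this held under the other scalings, filters and pseudocounts tried. With DESeq2, 10 rows passed for knockout against control, 1 for transgene against control and 1 for knockout against transgene. With 1 library left out, 0 to 2 rows passed for knockout against control, 0 to 1 for knockout against transgene and 0 for transgene against control. Total counts without TMM moved the median of all names by 0.16 on the log2 scale in both comparisons with control, and the unadjusted split became 198 higher and 57 lower for knockout, against 167 and 100, and 94 higher and 7 lower for transgene, against 56 and 28. Using all counted reads moved it by 0.11 for transgene and 0.10 for knockout. The share on family rows for transgene against control lay between -0.0207 points without transgene 2 and 0.973 points without transgene 3, and the share without mir-451 for knockout against transgene between -0.297 points without transgene 2 and 0.124 points without transgene 3. The log2 difference in the mir-10 ratio for knockout against transgene was 0.158 in the main analysis. It was -0.147 with all mature names of its miRBase family. For knockout against control the mir-143 fold was 0.064 without TMM and 0.027 on the total of counted reads. With 1 library left out its fold was -0.62 to 0.53, that of mir-190 -0.80 to 0.42, that of mir-137 -0.98 to 3.26, that of mir-203 -0.97 to 0.24 and that of mir-122 -1.54 to 1.61. Same-numbered libraries did not deviate together, with correlations of -0.275 to 0.047. Deviations from the mean of 3 libraries sum to 0 in each group, so this check cannot decide whether the numbers pair libraries. With the replicate block 0 rows passed, the smallest adjusted p being 0.205 for rows and 0.0818 for ratios, both knockout against control, and the mir-190 fold was 0.030. Leaving out knockout 1 and control 3, chosen after seeing the data, gave folds of 0.21 for mir-203 and 2.19 for mir-122. With 3 libraries a group, a p that misses the threshold does not show equal levels. Rows under 10 reads are limited by depth. The causes were not tested.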

Other observations

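The 13 rows with plant family names held 156, 364 and 51 reads in the knockout libraries, 18, 47 and 25 in the transgene libraries and 31, 10 and 21 in the controls. MIR168 alone had 109, 272 and 5 reads in knockout, 4, 4 and 7 in transgene and 5, 2 and 4 in control libraries, so knockout 1 and knockout 2 stood apart and knockout 3 did not. Without MIR168 the plant-named rows had 47, 92 and 46 reads in knockout, 14, 43 and 18 in transgene and 26, 8 and 17 in control libraries. The source of these reads was not tested.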
